A study of Rattus norvegicus with 6 samples.

Results

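The genes of the transforming growth factor β (TGFβ) and bone morphogenetic protein (BMP) pathway were compared in mural cells of the rat brain cortex, between the vascular smooth muscle cells of arterioles (VSMCs) and the pericytes of the mid-capillary bed (mcPCs). They were found by their symbols, as ligands, receptors, Smads, inhibitors and target genes of the family, and 60 of the 14607 genes of the table matched. The study kept in this table only genes that had reads in every sample, so genes without reads in any sample of either cell type are missing. Each cell type was represented by 3 RNA-Seq samples, and every isolation pooled cortices from male Sprague-Dawley rats of 4 to 5 weeks. VSMCs came from arterioles that a filter had retained. They were dissociated by a further enzyme digestion, depleted of CD31 and CD11b positive cells, and then captured through the lectin GSA. mcPCs were the cells of the filtrate left over after removal of CD31, CD11b, GLAST and O4 positive cells, so that no marker of their own selected them. All animals were untreated, so the contrast was one of cell type, isolation route and number of digestions together. The deposited table holds means over the samples of a cell type, without the single samples, so no SD between samples can be given and no difference below was tested. Summed over genes and runs, the mean counts came to a depth of 62.0 M reads for a VSMC sample, where M is 1e6, and of 48.0 M for an mcPC sample.

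Ligands of this family bind pairs of type II and type I serine/threonine kinase receptors, and the type I receptor then phosphorylates receptor-regulated Smads, which enter the nucleus with Smad4. TGFβ and activin signals pass mainly through Smad2 and Smad3, and BMP signals through Smad1, Smad5 and Smad9, with the Id genes among the best known BMP targets. In the vessel wall the pathway is known for its part in the differentiation of smooth muscle and in the exchange between endothelial and mural cells. Mutations of its endothelial receptors Eng and Acvrl1 underlie hereditary vascular malformations.

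The labels matched their markers. All 8 smooth muscle genes of a marker list were at least 2-fold higher in VSMCs, with a median log2 ratio of -8.01, and Acta2, the smooth muscle actin, averaged 17233 TPM in VSMCs against 20.2 in mcPCs, TPM being the authors' length-corrected measure of transcript abundance. The 8 capillary pericyte genes found were all at least 2-fold higher in mcPCs, with a median log2 ratio of 6.34. That list was chosen with earlier results of these data known. It holds RGD1566368, which the study picked for its enrichment in mcPCs in these same data, so it is no independent check. The 5 pan-mural genes went both ways, with log2 ratios (mcPC over VSMC) of -1.31 for Notch3, -1.11 for Mcam, -0.19 for Cspg4, -0.06 for Rgs5 and 1.17 for Pdgfrb. Other cell types moved with the mcPC label too. An erythrocyte list of 22 genes held 66.9% of the mcPC TPM and 0.882% of the VSMC TPM. Of 16 endothelial genes found out of 18 listed, 11 were at least 2-fold higher in mcPCs and none in VSMCs. The most abundant was Esam, with 487 TPM in VSMCs against 184 in mcPCs, or 557 in mcPCs outside the erythrocyte list. The log2 ratio of Esam was 0.43. The tight junction gene Cldn5 had 0.643 and 15.4 TPM, the von Willebrand factor gene Vwf 0.678 and 8.03 TPM, the cadherin gene Cdh5 0.305 and 1.48 TPM and the receptor gene Kdr 0.144 and 0.751 TPM, and Pecam1 and Ly6c1 were not analysed here. All 6 microglia and macrophage genes found out of 12 were higher in mcPCs, with a summed level of 0.893 TPM in VSMCs against 12.4 in mcPCs, Csf1r being the most abundant there with 3.94 TPM. The 4 lymphocyte and granulocyte genes found were all at least 2-fold higher in mcPCs, with a median log2 ratio of 3.82, and summed to 3.96 and 27.9 TPM. Of 5 astrocyte genes found 4 were at least 2-fold higher in mcPCs, with a median of 3.10 and sums of 14.2 and 20.1 TPM, or 61.0 TPM in mcPCs outside the erythrocyte list. Of 7 oligodendrocyte genes 6 were, with sums of 7.32 and 9.38 TPM, or 28.4 TPM in mcPCs outside that list. All 6 neuronal genes found were, with a median of 4.63 and sums of 3.32 and 24.4 TPM. In the fibroblast list, 8 genes in 9 rows, 5 rows were at least 2-fold higher in mcPCs and 2 in VSMCs, with a median of 1.54. Its TPM summed to 688 in VSMCs and 151 in mcPCs, or 459 in mcPCs outside the erythrocyte list, and its most abundant gene was Col3a1 in both. In the other direction, 14 of 15 early response genes, the transcripts that tissue dissociation is known to raise, were at least 2-fold higher in VSMCs with a median log2 ratio of -3.71. Fos had 4441 TPM in VSMCs against 45.2 in mcPCs. That list was added after the data had been seen. In such bulk samples fewer cells of a type and less RNA per cell cannot be told apart.

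Because erythrocyte transcripts filled most of the mcPC TPM, TPM is used below to order genes within a cell type, and the cell types are compared by the log2 ratio of the authors' mean normalized counts, with 1 added to each, mcPC over VSMC. On that scale the median of all genes was 0.01. A positive ratio means more in mcPCs, and 1 on the log2 scale is 2-fold. Intervals are exact 95% Clopper-Pearson intervals from the numbers of reads, and cover counting error only. The spread between isolations is not in them, and the reads carried no molecular identifiers.

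Of the 60 pathway genes, 23 were at least 2-fold higher in VSMCs, or 38.3%, where the share of all genes was 13.8%. In mcPCs 12 were at least 2-fold higher, or 20%, close to the 21.6% of all genes. The remaining 25 lay within 2-fold, 18 of them with a negative and 7 with a positive ratio. The median log2 ratio of the pathway genes was -0.69. At 4-fold, 13 were higher in VSMCs and 5 in mcPCs, or 21.7% and 8.33%, against 5.64% and 12% of all genes. At 1.5-fold, 31 and 13 were past the limit, or 51.7% and 21.7%, against 23.3% and 30% of all genes. Among the choices tried, the scale moved these counts most. On the ratio of TPM as it stands, which puts the median of all genes at -1.72, 44 pathway genes were at least 2-fold higher in VSMCs and 1 in mcPCs, against 72.3% and 7% of all genes. Relative to that median the numbers were 24 and 12, against 13.3% and 22.4% of all genes. On counts scaled to the same total they were 33 and 11, against 28.7% and 15.4%, and on the same counts without erythrocyte genes 21 and 12, against 11.3% and 24.5%. Over the 5 scales tried, 21 genes were past 2-fold toward VSMCs on every scale and 1, Gdf10, toward mcPCs. The plot of the ratios by role gives every gene.

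**Figure D1:**
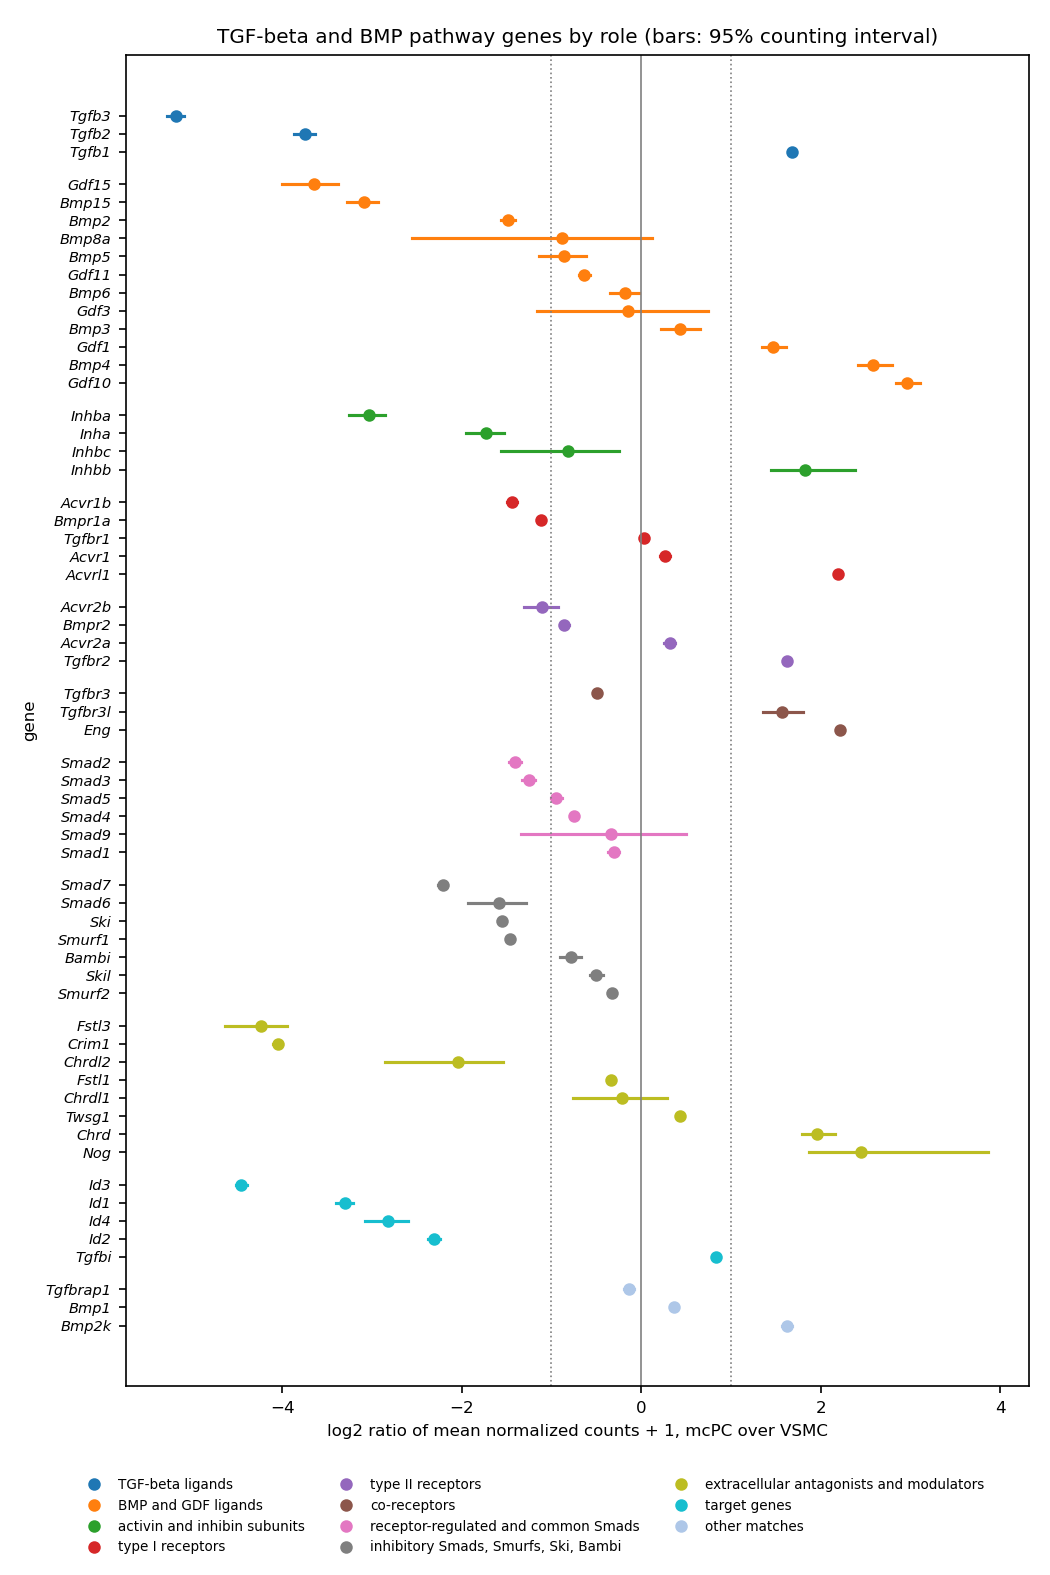
Log2 ratio of mean normalized counts (plus 1), mcPC over VSMC, for each of the 60 pathway genes, grouped and coloured by role. Points are ratios of the authors' means, bars 95% counting intervals, dotted lines 2-fold. The points run from -5.18 for Tgfb3 to 2.96 for Gdf10.

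The levels themselves spread widely. The most abundant pathway genes of VSMCs were Id3 with 913 TPM, Id2 with 342 TPM and Fstl1 with 306 TPM. In mcPCs they were Fstl1 with 68.6 TPM, Tgfb1 with 59.5 TPM and Eng with 55.1 TPM. Over the pathway genes the median level was 20.1 TPM in VSMCs against 3.29 in mcPCs, beside 12.7 and 3.59 TPM for all genes. At the low end, 8 were under 1 TPM in both cell types. The study's filter of 0.8 TPM in VSMCs left 52 of the 60, with 23 higher in VSMCs and 10 in mcPCs, against 15.7% and 13% of all genes past that filter. A limit of 1 TPM in either cell type gave the same 23 and 10 of 52, against 15.2% and 16.1%.

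**Figure D2:**
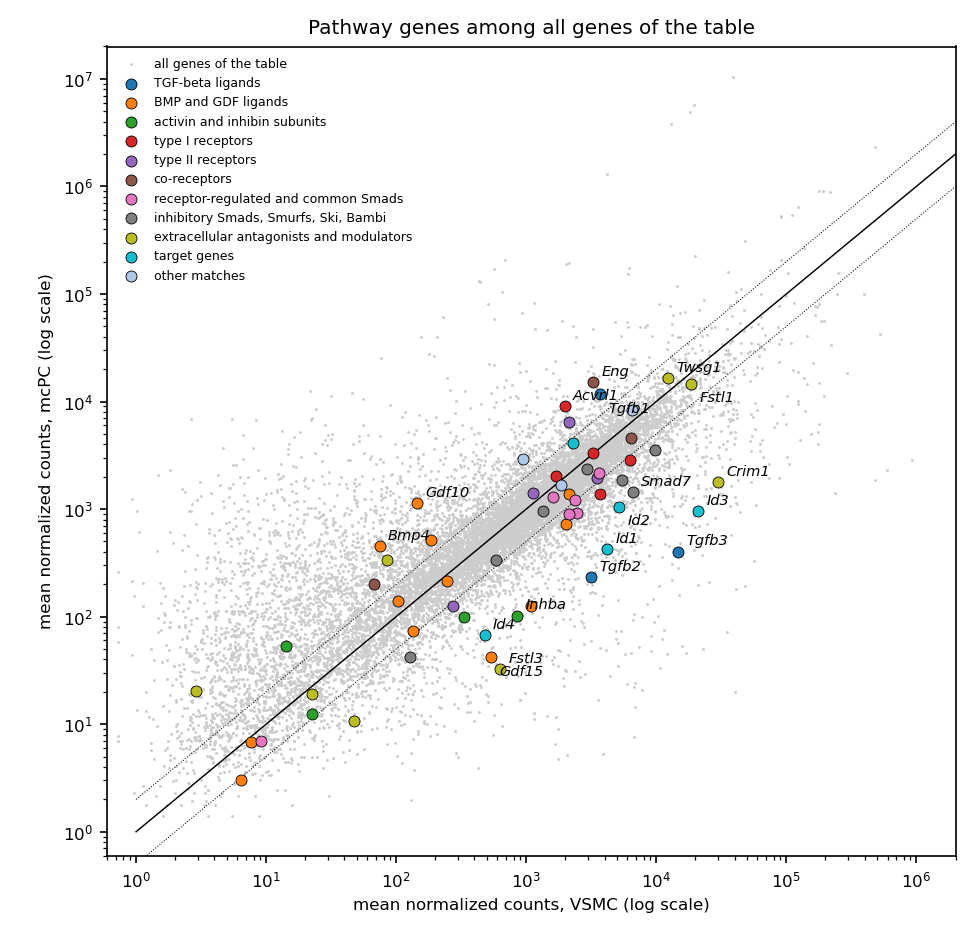
Authors' mean normalized counts in VSMCs (x) and mcPCs (y), both on log scales, for all 14607 genes (grey) and the pathway genes (coloured by role). The solid line marks equal values and dotted lines 2-fold; Tgfb3, Id3 and Crim1 lie far below the line, and Eng, Tgfb1 and Acvrl1 above it.

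The 3 TGFβ ligands had different patterns. Tgfb3 led in VSMCs and Tgfb1 in mcPCs, with Tgfb2 the lowest in both. Tgfb3 averaged 209 TPM in VSMCs against 1.65 in mcPCs, on 20540 and 297 reads per sample. It was 36.3-fold higher in VSMCs (log2 ratio -5.18, interval -5.28 to -5.09). Tgfb2 had 36.1 and 0.775 TPM, and was 13.4-fold higher in VSMCs (log2 ratio -3.74, interval -3.87 to -3.63). Tgfb1 had 65.5 TPM in VSMCs against 59.5 in mcPCs, from 5101 and 8600 reads per sample. Scaled to the TPM outside the erythrocyte list, its mcPC level was 180 TPM, and its normalized counts were 3.21-fold higher in mcPCs (log2 ratio 1.68, interval 1.66 to 1.71). On the ratio of TPM as it stands, the value for Tgfb1 was -0.14.

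These levels can also be read within a cell type, where the scaling between samples has no part. Tgfb3 made up 67.3% of the TPM of the 3 TGFβ ligands in VSMCs, Tgfb1 21.1% and Tgfb2 11.6%. In mcPCs Tgfb1 made up 96.1%, Tgfb3 2.66% and Tgfb2 1.25%. There were thus 3.19 Tgfb3 transcripts for each Tgfb1 transcript in VSMCs and 0.0277 in mcPCs. Tgfb1 is also made by microglia and endothelial cells, whose markers moved with the mcPC label as given above. Their part in the mcPC level of Tgfb1 was not tested. Beside the 59.5 TPM of Tgfb1 in mcPCs, the microglia and macrophage list summed to 12.4 TPM there. The lymphocyte and granulocyte list summed to 27.9 TPM, with Ptprc at 15.1 TPM, and the endothelial list to 258 TPM. Most of the endothelial sum came from Esam with 184 TPM and Slc2a1 with 23.9 TPM, both within 2-fold between the cell types. Cldn5, which was higher in mcPCs, had 15.4 TPM there.

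**Figure D3:**
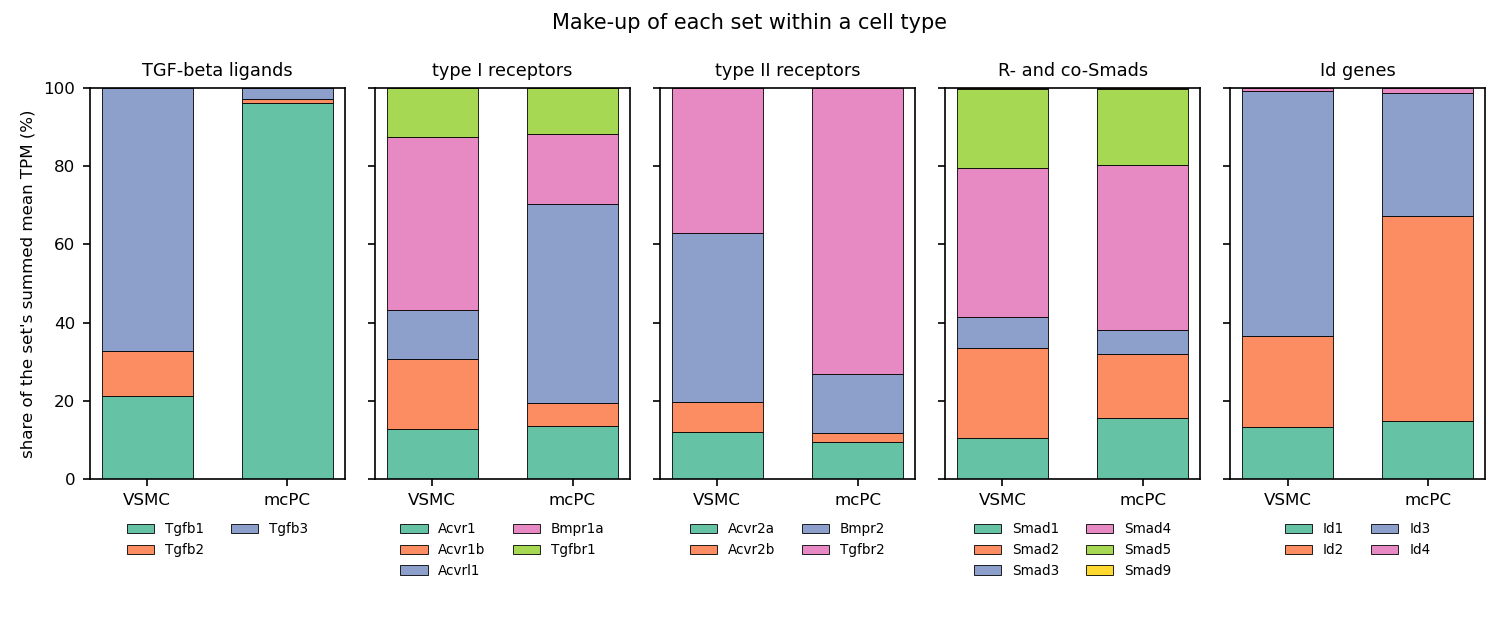
Share of each gene in the summed mean TPM of its set (%, from 0 to 100), within VSMCs (left bars) and mcPCs (right bars), for TGFβ ligands, type I and type II receptors, receptor-regulated and common Smads, and Id genes. Tgfb3 takes 67.3% of the TGFβ ligand bar in VSMCs and Tgfb1 96.1% in mcPCs, whereas the Smad bars differ far less.

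Of 20 BMP and GDF ligands listed, 12 had a row, 3 of them at least 2-fold higher in VSMCs and 3 in mcPCs, beside 13.8% and 21.6% of all genes, the background for each role that follows as well. Gdf15, a ligand induced by cell stress, had 26.4 TPM in VSMCs against 0.595 in mcPCs, a log2 ratio of -3.65, on 30.7 reads per mcPC sample. The early response genes stood on the same side, and their part in the value of Gdf15 was not tested. Bmp2, a BMP ligand of the vessel wall, had 23.4 and 2.33 TPM (log2 ratio -1.48, interval -1.56 to -1.41). Bmp15, best known as an oocyte ligand, was listed with 13.3 TPM in VSMCs, from 1519 reads per sample, and 0.431 TPM in mcPCs, a log2 ratio of -3.09. Gdf11, an activin-like ligand, had 19.5 and 3.57 TPM and stayed within 2-fold at -0.63.

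The ligands higher in mcPCs were led by Gdf10, which held 25.6% of the BMP and GDF ligand TPM there and 2.33% in VSMCs. Gdf10 had 2.28 TPM in VSMCs against 4.84 in mcPCs, with a log2 ratio of 2.96 (interval 2.84 to 3.10). Bmp4, the close relative of Bmp2, had 1.66 and 2.88 TPM and a ratio of 2.59 (interval 2.42 to 2.79). Gdf1 had 2.66 and 2.10 TPM, with a ratio of 1.47 that turned to -0.33 on TPM as it stands. Gdf1 and Cers1 share their coordinates in the RefSeq annotation, so that the value of Gdf1 is uncertain. Bmp2 was 14.1 times as abundant as Bmp4 in VSMCs and 0.807 times in mcPCs. The other ligands were Bmp5 at -0.87, Bmp6 at -0.19, Bmp3 at 0.43, Gdf3 at -0.15 and Bmp8a at -0.88. Of these, Gdf3 and Bmp8a rested on 5.00 and 2.33 reads per mcPC sample, and their intervals included 0.

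The activin and inhibin subunits differed among themselves. Inhba, the subunit of activin A, had 12.5 TPM in VSMCs against 0.412 in mcPCs, a log2 ratio of -3.04 (interval -3.25 to -2.85). Inha, the α subunit that makes an inhibin of an activin chain, had 9.42 and 0.815 TPM and a ratio of -1.73 (interval -1.95 to -1.53). Inhbb had 0.170 and 0.183 TPM, with a ratio of 1.83, and Inhbc 0.211 and 0.0348 TPM, with a ratio of -0.81. Summed over the 4 subunits, TPM was 22.3 in VSMCs and 1.44 in mcPCs.

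Among receptors, the differences were smaller and ran both ways. Of the 5 type I receptors with a row, Bmpr1a, the BMP receptor ALK3, had 73.4 TPM in VSMCs against 9.44 in mcPCs, and was 2.17-fold higher in VSMCs (log2 ratio -1.12, interval -1.16 to -1.08), but fell inside 2-fold, at -0.97, on counts scaled without erythrocyte genes. Acvr1b, the activin receptor ALK4, had 29.8 and 3.12 TPM (ratio -1.44, interval -1.50 to -1.38). Tgfbr1, the TGFβ type I receptor, had 20.9 and 6.16 TPM and a ratio of 0.03, and Acvr1 21.0 and 7.08 TPM with a ratio of 0.26. Acvrl1, the receptor ALK1 of BMP9 and BMP10, had 20.7 and 26.8 TPM, and was 4.57-fold higher in mcPCs (ratio 2.19, interval 2.16 to 2.23). Bmpr1a therefore held 44.3% of the type I receptor TPM in VSMCs and 17.9% in mcPCs, and Acvrl1 12.5% and 50.9%.

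The type II receptors ran both ways as well. Tgfbr2, which binds TGFβ itself, had 28.4 TPM in VSMCs against 24.9 in mcPCs, and its normalized counts were 3.07-fold higher in mcPCs (log2 ratio 1.62, interval 1.58 to 1.66, but -0.19 on TPM as it stands). Bmpr2, the BMP type II receptor, had 33.0 and 5.17 TPM and a ratio of -0.86, within 2-fold. There were 0.861 Tgfbr2 transcripts for each of Bmpr2 in VSMCs and 4.81 in mcPCs. Acvr2a had 9.12 and 3.20 TPM (ratio 0.31). Acvr2b had 5.95 and 0.801 TPM (ratio -1.11), and was the one gene past 2-fold whose interval, -1.31 to -0.93, reached back inside. It too fell inside 2-fold, at -0.91, on counts scaled without erythrocyte genes.

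Eng, the co-receptor endoglin that works with Acvrl1, had 42.2 TPM in VSMCs against 55.1 in mcPCs, from 4622 and 11105 reads per sample. Its normalized counts were 4.64-fold higher in mcPCs (log2 ratio 2.21, interval 2.18 to 2.24). Tgfbr3, or betaglycan, which presents Tgfb2 to its receptors, had 38.2 and 7.65 TPM and a ratio of -0.49. Its relative Tgfbr3l had 3.40 and 2.93 TPM and a ratio of 1.57, or -0.21 on TPM as it stands. Eng, Acvrl1 and Tgfbr2 are abundant in endothelial cells, and 11 of 16 endothelial markers were also at least 2-fold higher in mcPCs, whose part in these values was not tested. The 16 endothelial markers summed to 654 TPM in VSMCs against 258 in mcPCs, or 781 in mcPCs outside the erythrocyte list. Of the 5 within 2-fold, Esam had 487 TPM in VSMCs, Slc2a1 115 TPM, Ocln 37.7 TPM and Flt1 8.20 TPM, whereas Cldn5 and Cdh5 had 0.643 and 0.305 TPM there.

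The 6 Smads that carry the signal all had ratios below 0, 2 of them past 2-fold, but Smad9 turned to 0.68 on the TPM ratio less its median. Smad2 had 43.8 TPM in VSMCs against 4.83 in mcPCs (log2 ratio -1.41, interval -1.47 to -1.34). Smad3 had 15.3 and 1.86 TPM (ratio -1.25, interval -1.32 to -1.18). Of the BMP Smads, Smad5 had 38.9 and 5.79 TPM (ratio -0.95), and Smad1 20.1 and 4.63 TPM (ratio -0.31). Smad4, the partner of both groups, had 72.9 and 12.6 TPM (ratio -0.75). Smad9 was low in both, on 11.7 and 5.37 reads per sample. Smad2 and Smad3 together had 59.1 TPM in VSMCs, equal to the 59.1 TPM of Smad1 and Smad5, whereas in mcPCs they had 6.69 TPM beside 10.4 TPM, a ratio of 0.642.

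Inhibitors inside the cell were likewise on the VSMC side, 4 of 7 by at least 2-fold and the other 3 within it. Smad7, an inhibitory Smad that TGFβ induces, had 56.0 TPM in VSMCs against 3.53 in mcPCs, and was 4.63-fold higher in VSMCs (log2 ratio -2.21, interval -2.26 to -2.16). Smad6, which acts on the BMP branch, had 3.79 and 0.360 TPM (ratio -1.58, interval -1.93 to -1.29). Ski, a corepressor of Smads, had 7625 and 1393 reads per sample (ratio -1.55, interval -1.60 to -1.50), and Smurf1, a ubiquitin ligase of Smads and receptors, 75.1 and 7.73 TPM (ratio -1.46, interval -1.49 to -1.42). Their relatives Skil and Smurf2 had ratios of -0.50 and -0.33. Bambi, a receptor-like protein without a kinase domain, had 16.1 and 2.63 TPM and a ratio of -0.79.

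Outside the cell, 8 of 14 listed antagonists and modulators had a row, and they split into 3 higher in VSMCs, 2 higher in mcPCs and 3 within 2-fold. Crim1, a membrane protein that binds BMPs, had 265 TPM in VSMCs against 4.52 in mcPCs, from 41585 and 1321 reads per sample. It was 16.6-fold higher in VSMCs (log2 ratio -4.05), above 96.0% of all genes there and above 55.9% in mcPCs. Fstl3, a secreted activin antagonist, had 12.9 and 0.197 TPM and was 18.9-fold higher in VSMCs (ratio -4.24, interval -4.63 to -3.95), on 25.0 reads per mcPC sample. Chrdl2 had 1.15 and 0.0730 TPM (ratio -2.04). Fstl1, a secreted follistatin-like protein, was abundant in both, with 306 and 68.6 TPM and a ratio of -0.34, above 96.5% and 96.6% of all genes. Twsg1, a modulator of chordin and BMP, had 113 and 42.6 TPM (ratio 0.43). Chrd, or chordin, had 0.961 and 1.07 TPM (ratio 1.96, interval 1.79 to 2.16). Nog, or noggin, had 0.0706 and 0.145 TPM, on 4.00 and 15.3 reads per sample (ratio 2.45, interval 1.87 to 3.86). Chrdl1 had a ratio of -0.22.

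The Id genes, dominant-negative helix-loop-helix factors and direct BMP targets, all stood on the VSMC side, each of the 4 past 4-fold. Id3 had 913 TPM in VSMCs against 12.2 in mcPCs, and was 21.9-fold higher in VSMCs (log2 ratio -4.45, interval -4.52 to -4.39). Id1 had 192 and 5.74 TPM (ratio -3.30, interval -3.40 to -3.21). Id4 had 11.7 and 0.482 TPM (ratio -2.82, interval -3.08 to -2.60), on 50.7 reads per mcPC sample. Id2 had 342 and 20.4 TPM (ratio -2.31, interval -2.37 to -2.25). Id3 was 2.67 times as abundant as Id2 in VSMCs and 0.597 times in mcPCs, so Id2 led in mcPCs with 52.6% of the Id TPM. Several Id genes are also early response genes, and the 14 early response genes past 2-fold had log2 ratios from -4.86 for Fos to -2.78 for Btg2. The further digestion was given to the VSMC fraction alone, so that digestion and cell type cannot be told apart in the Id values. The same holds for Smad7 and for every other gene compared here. Tgfbi, a matrix protein named for its induction by TGFβ, had 32.1 and 16.2 TPM and a ratio of 0.84, within 2-fold toward mcPCs.

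Because the Id genes moved together, their promoters are shown, 250 bases before to 50 after the start of the gene, from RefSeq on the GRCr8 assembly, another build than the Rnor_6.0 of the counts. Capitals mark GGCGCC, the core of the BMP response element known from the Id1 enhancer, and GTCT, the Smad box, each on either strand, so that the box also reads AGAC. By their letters the motifs cannot overlap each other.
Id1 (GRCr8, chr3:161671314-161671613, + strand): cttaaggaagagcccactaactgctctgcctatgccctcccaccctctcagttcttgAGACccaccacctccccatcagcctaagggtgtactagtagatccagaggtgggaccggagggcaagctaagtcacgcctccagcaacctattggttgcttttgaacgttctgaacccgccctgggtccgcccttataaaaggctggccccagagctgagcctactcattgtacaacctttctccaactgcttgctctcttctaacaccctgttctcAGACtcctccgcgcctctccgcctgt
Id2 (GRCr8, chr6:47470946-47471245, - strand): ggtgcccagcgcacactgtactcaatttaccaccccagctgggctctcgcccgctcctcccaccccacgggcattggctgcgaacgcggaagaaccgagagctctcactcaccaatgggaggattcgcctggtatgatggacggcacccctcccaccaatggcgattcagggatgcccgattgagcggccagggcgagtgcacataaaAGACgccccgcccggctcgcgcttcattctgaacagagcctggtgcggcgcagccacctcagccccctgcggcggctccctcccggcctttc
Id3 (GRCr8, chr5:153656041-153656340, + strand): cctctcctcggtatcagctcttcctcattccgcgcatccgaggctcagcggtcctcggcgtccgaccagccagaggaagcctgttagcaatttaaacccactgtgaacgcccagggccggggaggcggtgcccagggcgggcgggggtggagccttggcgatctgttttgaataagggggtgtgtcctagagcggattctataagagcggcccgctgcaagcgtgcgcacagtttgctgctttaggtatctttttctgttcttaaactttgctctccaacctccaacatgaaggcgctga
Id4 (GRCr8, chr17:16598244-16598543, - strand): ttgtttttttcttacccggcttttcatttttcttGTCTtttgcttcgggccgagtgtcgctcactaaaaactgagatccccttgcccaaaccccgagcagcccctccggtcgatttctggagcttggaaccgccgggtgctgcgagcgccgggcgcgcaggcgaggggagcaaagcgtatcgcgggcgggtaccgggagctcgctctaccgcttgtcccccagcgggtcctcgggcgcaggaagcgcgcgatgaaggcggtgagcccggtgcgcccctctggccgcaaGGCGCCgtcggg

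Within these windows Id4 had both motifs, 1 match each, Id1 had 2 Smad boxes, Id2 had 1 and Id3 none. No match says only that the letters are not in this window, and the known Id1 enhancer lies further upstream. GTCT was in 88.7% of 27457 promoters of that length, 1 per gene, in 86.4% of the 10884 whose gene is in the table and in 39 of the 52 pathway genes whose symbol matched, or 75.0%. GGCGCC was in 11.8% of all promoters, in 21.1% of those of the table and in 19 of the 52, or 36.5%. Median GC content differed in the same order, 52.3% for all promoters, 60.7% for genes of the table and 66.7% for pathway genes, and its part in the share of GGCGCC was not tested. The GC content of the Id promoters ran from 55.7% for Id1 to 65.3% for Id2.

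The rule also took in 3 genes that are not ligands, receptors or Smads. Bmp2k, a kinase named after its induction by BMP2, had 11.0 TPM in VSMCs against 9.60 in mcPCs and a log2 ratio of 1.62 (interval 1.57 to 1.68), or -0.20 on TPM as it stands. Bmp1, a protease that trims procollagen and chordin, had 65.1 and 24.0 TPM (ratio 0.36), and Tgfbrap1, a vesicle tethering protein, 13.2 and 3.38 TPM (ratio -0.14). The genes nearest the 2-fold limit were Smad5, just inside it at 1.93-fold, Bmp8a at 1.84-fold, and Acvr2b and Bmpr1a just outside it at 2.16-fold and 2.17-fold. Of the family, Bmp7, Bmp8b, Bmp10, Gdf2, Gdf5, Gdf6, Gdf7, Gdf9, Inhbe, Acvr1c, Bmpr1b, Bmper, Fst, Fstl4, Fstl5 and Grem1 were not analysed here.

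The plot of further pathway lists sets these genes beside their surroundings. Over 5 lists of other pathway genes, 77 of 95 symbols had a row, 25 of them at least 2-fold higher in VSMCs and 18 in mcPCs, where the shares of all genes were 13.8% and 21.6%. The same shares stand behind the count of each list below. In the list of latent TGFβ storage and activation, 14 genes were found, 4 higher in VSMCs, 3 in mcPCs and 7 within 2-fold. Ltbp1, the binding protein that holds latent TGFβ in the matrix, had 122.9 TPM in VSMCs against 1.13 in mcPCs and was 30.7-fold higher in VSMCs. Lrrc32, or GARP, the cell surface anchor of latent TGFβ, had 299 and 10.4 TPM, 8.10-fold higher in VSMCs. Thbs1, or thrombospondin, an activator of latent TGFβ, had 116 and 2.79 TPM, 12.1-fold higher. The serine protease gene Htra3, whose product is known to inhibit TGFβ signalling, went the other way, with 22.5 and 202 TPM, 32.0-fold higher in mcPCs. Ltbp3 and Ltbp4 had ratios of 0.60 and 1.35, and Furin, which cleaves the TGFβ precursor, 0.54.

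Of 17 other ligands, receptors and antagonists found out of 26, 4 were higher in VSMCs and 7 in mcPCs by at least 2-fold. Fmod, or fibromodulin, a small proteoglycan that binds TGFβ, had 581 TPM in VSMCs against 0.981 in mcPCs, 171-fold higher in VSMCs. Aspn, or asporin, of the same family, had 256 and 7.10 TPM, 10.3-fold higher. Neo1, a receptor of repulsive guidance molecules, had 60.1 and 3.12 TPM, 5.53-fold higher in VSMCs. Rgma, one of those molecules and a BMP co-receptor, had 13.1 and 16.5 TPM and was 4.43-fold higher in mcPCs. Among 22 intracellular regulators found out of 23, 15 lay within 2-fold, 4 were higher in VSMCs and 3 in mcPCs. Nedd4l, a ubiquitin ligase of Smad2 and Smad3, had 2.20 and 6.03 TPM and a log2 ratio of 3.33.

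Of 19 genes known to respond to TGFβ, found out of 20, 11 were at least 2-fold higher in VSMCs and 4 in mcPCs, with a median log2 ratio of -1.40. They included the matricellular gene Cyr61 with 238 and 4.86 TPM, 14.3-fold higher in VSMCs. Junb, with 2705 and 65.5 TPM, is also an early response gene. Acta2, Tagln and Cnn1 are in this list and in the smooth muscle markers, with log2 ratios between -8.17 and -7.99, so that they mark the cell type in any case. Higher in mcPCs were Postn, or periostin, with 0.378 and 16.3 TPM and 151-fold, Snai1 with 9.92 and 13.7 TPM and 4.84-fold, and the fibronectin gene Fn1 with 8.12 and 10.6 TPM and a log2 ratio of 2.16. The remaining one, named after its values were seen, was the tenascin gene Tnc, with 0.935 and 1.68 TPM and a log2 ratio of 2.71. Of 10 genes known to respond to BMP, found out of 14 and 2 of them pathway genes already described, 5 were higher in VSMCs and 2 in mcPCs. Hes1, which also answers to Notch, had 256 and 8.03 TPM, 9.11-fold higher in VSMCs.

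**Figure D4:**
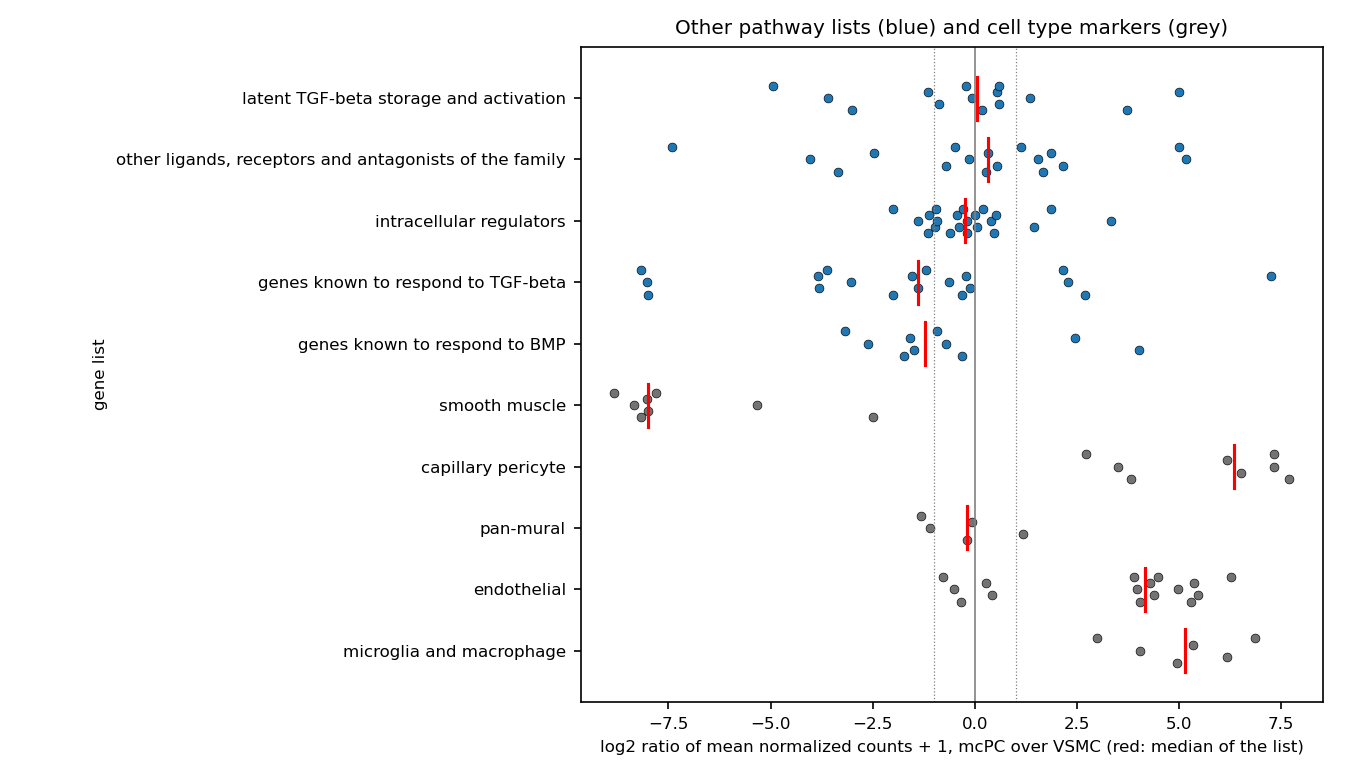
Log2 ratio of mean normalized counts (plus 1), mcPC over VSMC, for single genes (points) of 5 further pathway lists (blue) and 5 marker lists (grey), with the median of each list in red and 2-fold limits dotted. Medians of the lists of genes known to respond to TGFβ and BMP lie at -1.40 and -1.21, smooth muscle markers at -8.01 and endothelial markers at 4.16.

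How far each of the 35 genes past 2-fold depended on the scale is shown in the plot of 5 scales. For the 23 genes higher in VSMCs the direction was the same on every scale, with Tgfb3 between -6.90 and -5.00 and Id3 between -6.22 and -4.21. For genes higher in mcPCs, the ratio of TPM as it stands ran from -0.33 for Gdf1 to 1.05 for Gdf10. Eng ran from 0.39 on that ratio to 2.37 on counts scaled without erythrocyte genes, Acvrl1 from 0.37 to 2.35, Tgfbr2 from -0.19 to 1.80 and Tgfb1 from -0.14 to 1.86. Among genes within 2-fold, several low ones with negative ratios turned positive on the TPM ratio less its median, Bmp8a to 0.77, Gdf3 to 0.88, Inhbc to 0.51, Smad9 to 0.68 and Chrdl1 to 0.73.

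**Figure D5:**
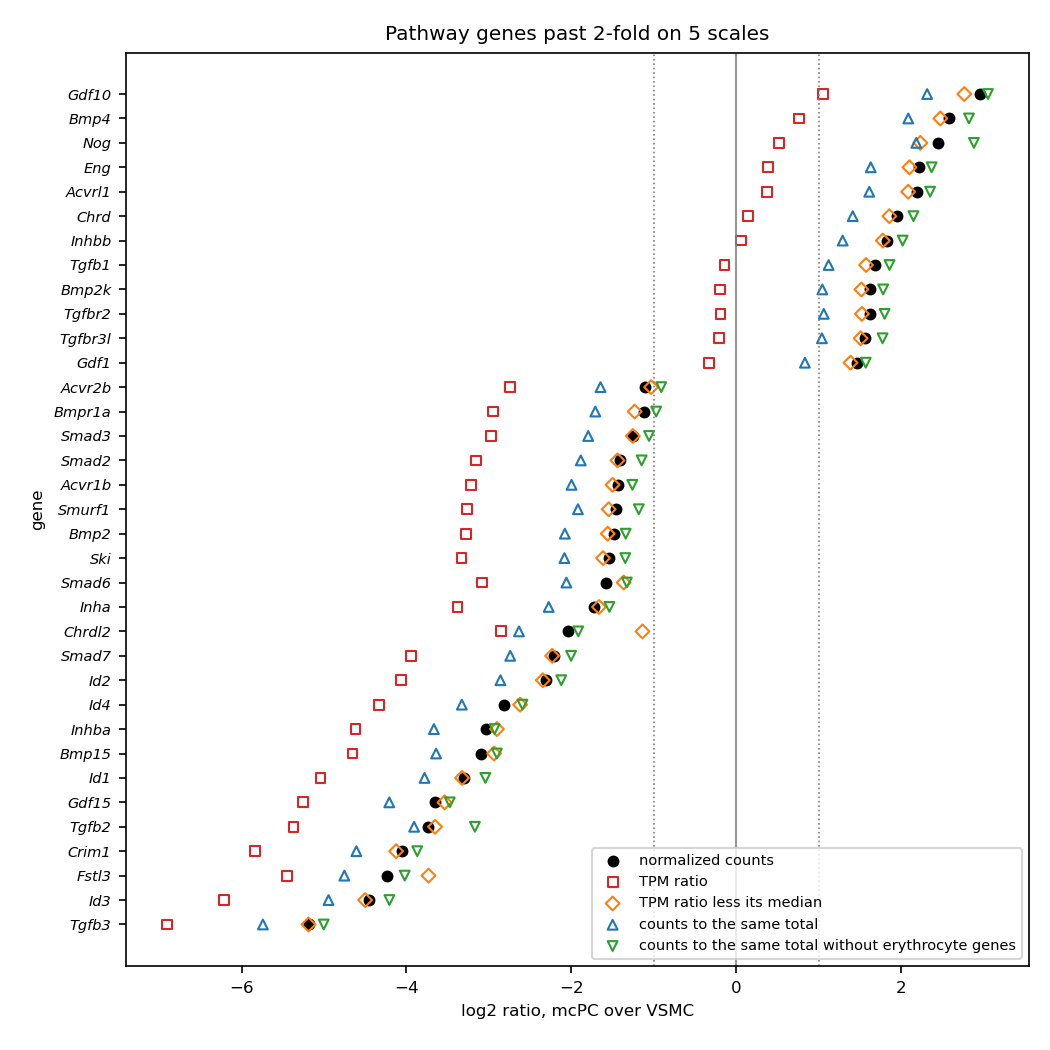
Log2 ratio, mcPC over VSMC, of the 35 pathway genes past 2-fold, on 5 scales: mean normalized counts, mean TPM, mean TPM less the median of all genes, and mean counts scaled to the same total with or without erythrocyte genes. The TPM ratio (squares) lies left of the other scales for each of the 35 genes, and 5 genes higher in mcPCs turn negative on it.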

How the data were processed

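Poly(A) RNA of 6 samples, 3 per cell type, was sequenced over 4 runs per library. Using Eoulsan, the authors filtered reads and quantified them against Ensembl transcripts (Rnor_6.0) in Salmon 0.8.0. Gene values were then derived by tximport, and normalization and testing were done in DESeq2. The deposited table holds the authors' mean TPM of each cell type, their mean estimated counts, which are per run and were taken 4 times for a sample (69.8% of those of VSMCs and 71.5% of those of mcPCs are whole multiples of 1 read over 12 runs, within 0.01 read), normalized counts, a signal the authors made by dividing counts by DESeq2 factors, and other columns with the authors' effective lengths. The authors' fold changes, standard errors and p-values, also in the table, were not used.

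With means only, the planned count test was not run. Log2 ratios of normalized counts used a pseudocount of 1, other scales 0.1 (on TPM, or on counts per run). Genes were called past 2-fold. Named were pathway genes past 2-fold with at least 5 TPM in either cell type, the most abundant ones, others by role, and other pathway genes past 4-fold with that TPM. Genes and lists were chosen with earlier results of these data known. Scales and counting intervals were tested on simulated data. Calculations ran in Python 3.11.15 with pandas 2.3.3, numpy 2.4.6 and scipy 1.17.1, and plots in matplotlib 3.10.9.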

Additional observations from a re-analysis of the deposited data

How the results depend on the processing

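Scaling was the choice that moved the values most. On the ratio of mean TPM as it stands, 1 pathway gene was at least 2-fold higher in mcPCs and 44 in VSMCs, with a median log2 ratio of -2.28, beside a median of -1.72 for all genes. On that ratio Tgfb1 came to -0.14, Gdf1 to -0.33, Tgfbr2 to -0.19, Tgfbr3l to -0.21 and Bmp2k to -0.20, and so changed sign. Erythrocyte transcripts held 66.9% of the mcPC TPM. On counts scaled to the same total the median was -1.25, and that of all genes -0.55. Leaving out the erythrocyte genes there gave 21 genes higher in VSMCs and 12 in mcPCs, without Bmpr1a at -0.97 and Acvr2b at -0.91, and a median of all genes of 0.19. A 4-fold limit left 5 genes higher in mcPCs and 13 in VSMCs, by its own construction. A 1.5-fold limit, pseudocounts of 0 and 10, filters of 0.8 TPM in VSMCs and 1 TPM in either cell type, and leaving out Bmp1, Bmp2k and Tgfbrap1 kept both numbers within 1.5 times of 23 and 12. Both cell types were obtained in 3 independent isolations, and the sample titles share the letters DN, DL and DK between the cell types. No paired analysis was possible because the columns are means and carry no isolation, and for the same reason no sample could be left out in turn. Genes on fewer than 10 reads per sample in either cell type, such as Bmp8a, Gdf3, Smad9, Chrdl2, Inhbc and Nog, have ratios of low precision.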

Other observations

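Effective transcript length, averaged for each gene over its transcripts by their abundance, differed by over 3% between the cell types for 4 of the 60 pathway genes and for 11% of all genes. Tgfb2 stood apart, with 2650 bases in VSMCs and 3390 bases in mcPCs, 27.9% longer in mcPCs. A difference over 20% was found in 1.55% of all genes. The Tgfb2 lengths rested on 3880 reads per VSMC sample and 200 per mcPC sample, and no spread between samples can be given. Smurf1 was 7.38% longer in mcPCs, Tgfbr1 5.06% and Smad2 4.88%. Which transcripts were in use was not analysed here.

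Bmp15, an ovarian ligand, was listed at 13.3 TPM in VSMCs, above 50.9% of all genes, from 1519 reads per sample. The part of the gene these reads fall in was not analysed here.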
